A study of Homo sapiens with 6 samples.

Results

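The boundary between the genes DDO and SLC22A16 on chromosome 6 was examined in Hi-C maps of LNCaP cells, as the 53 bins of 40 kb between 109.7 and 111.8 Mb (hg19) around the bin from 110.72 to 110.76 Mb. These are 53 of the 64943 bins over which the maps are defined, and the window holds 20 protein-coding genes. The bin was chosen by its insulation value in these same maps, as a control TAD boundary that was not called after CTCF depletion and whose value had one of the largest increases. The change at the bin is therefore given as a description, with no test. Of the 20 genes, 5 are described in full: WASF1, DDO, SLC22A16, CDK19 and AMD1.

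LNCaP is an established human prostate cancer cell line. Cells received either a non-targeting pool of siRNAs (control siRNA) or a pool against CTCF (CTCF siRNA), at 20 nM in both cases and for 144 h in all, with a repeat transfection midway. By the labels, control siRNA has 2 libraries and CTCF siRNA has 4, which the authors pooled into 1 map for each condition. The 4 are numbered 1, 2, 1.1 and 2.1, and whether the last 2 are separate cultures or repeats of the first 2 is not stated. No replicate map was left by this pooling, none of the differences below could be set against the spread between replicates, and every interval covers counting error only. A pool of siRNAs lowers the protein without removing it, and what CTCF remained at this position was not analysed here.

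CTCF is a zinc-finger protein that binds DNA and, together with the ring-shaped cohesin complex, shapes how chromatin folds. A topologically associating domain (TAD) is a stretch of chromosome whose parts contact each other more often than they contact the neighbouring stretches. A boundary is the position between neighbouring TADs, across which contacts are scarce, and CTCF is bound at many of them.

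The boundary bin holds the start of DDO and the end of SLC22A16. DDO, which encodes the peroxisomal enzyme D-aspartate oxidase, lies on the minus strand at chr6:110712974-110736778. SLC22A16, a carnitine and organic cation transporter of the solute carrier family, lies on the minus strand at chr6:110745890-110797844, so that its start falls in the next bin. To the left lie WASF1 (chr6:110421022-110501207), a subunit of the WAVE complex that promotes actin branching, then CDC40, a splicing factor, and METTL24. To the right lie CDK19 (chr6:110931181-111137161), a kinase of the Mediator complex, and AMD1 (chr6:111195973-111220082), the S-adenosylmethionine decarboxylase of polyamine synthesis. In all, 11 genes end left of the boundary bin, 7 start right of it, and DDO and SLC22A16 overlap it.

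CTCF recognises a core sequence, which was searched on both strands of the hg19 sequence as the letters CC, 3 free bases, AG, 2 free bases and GGC. That pattern was too common to single out a position: it occurred in 83.2% of the 2975 usable chromosome 6 bins, 8 times in the boundary bin. A stricter core (CCA, 2 free bases, AGG, 1 free base, GGC), chosen after the first count was seen and always also a match of the first, occurred in 20.2% of these bins and in 14 of the 53 bins of the window. The boundary bin itself held 0 strict matches. The 4 nearest to it are shown, since they are where this core occurs around the lost boundary. Each is written 5′ to 3′ on the strand of the match, with the 12 bases of the core in capitals.
METTL24 intron, chr6:110648004-110648033, minus strand: tgagtttggCCAACAGGAGGCaggagattg
METTL24 exon, chr6:110679253-110679282, minus strand: cgcgcggcgCCAGCAGGAGGCaggtgacct
SLC22A16 intron, chr6:110782602-110782631, minus strand: gggtaggggCCAGCAGGGGGCtgcaccagc
between SLC22A16 and CDK19, chr6:110870616-110870645, plus strand: tccagggatCCACCAGGTGGCccagatgag

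The nearest match lay 42.6 kb right of the centre of the boundary bin, inside SLC22A16, and the next 60.7 kb to the left, at the start of METTL24. Of the 17 strict matches in the window, 8 were on the plus strand and 9 on the minus strand. A match is a description of the letters and does not say that CTCF was bound. In the promoters of RefSeq (GRCh38, the stretch around each gene's start), the first of these patterns was found for METTL24 and SLC16A10 among 18 genes of the window that could be matched, against 10.6% of 35116 promoters.

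On chromosome 6 there were 597573 contacts in control and 3.26 times as many, 1945649, in CTCF siRNA. A bin of the window had between 108 and 705 contacts in control and between 525 and 4038 in CTCF siRNA. The ratio of coverage was not even along the window, with a range from 1.98 to 7.003 and a median of 4.31, and it was 5.10 at the boundary bin. For this reason values from balanced counts, in which every bin is scaled to the same coverage, are given beside those from the counts. The boundary bin had a GC content of 44.1% and 16 sites of BglII, the enzyme used to cut the DNA, against 35.6 to 49.3% and 4 to 31 sites over the window.

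The TADs called by the authors changed around the boundary. In control, a TAD of 920 kb from 109.82 to 110.74 Mb held the starts of AK9, FIG4, GPR6, WASF1, CDC40, METTL24 and DDO. It met, in the middle of the boundary bin, a TAD of 560 kb from 110.74 to 111.3 Mb with the starts of SLC22A16, CDK19, AMD1 and GTF3C6. In CTCF siRNA, 1 TAD of 840 kb from 110.42 to 111.26 Mb spanned the former boundary. It held the starts of WASF1, CDC40, METTL24, DDO, SLC22A16, CDK19 and AMD1.

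The control TADs were not joined whole. The left one was divided, as AK9, FIG4 and GPR6 remained in a separate TAD of 640 kb that ended at 110.42 Mb, at the end of WASF1, where control had no edge. Of the 4 TAD edges of control inside the window, 2 were matched in CTCF siRNA within 40 kb, and those at 110.74 and 111.54 Mb were not. Of the 3 edges in CTCF siRNA, the edge at 110.42 Mb was the only one without a control edge within 40 kb. No edge was at exactly the same position in both lists. Further right, 1 TAD of 1120 kb in CTCF siRNA took in 3 control TADs, of which those from 111.3 to 111.54 Mb and from 111.54 to 111.98 Mb reach into the window.

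**Figure D1:**
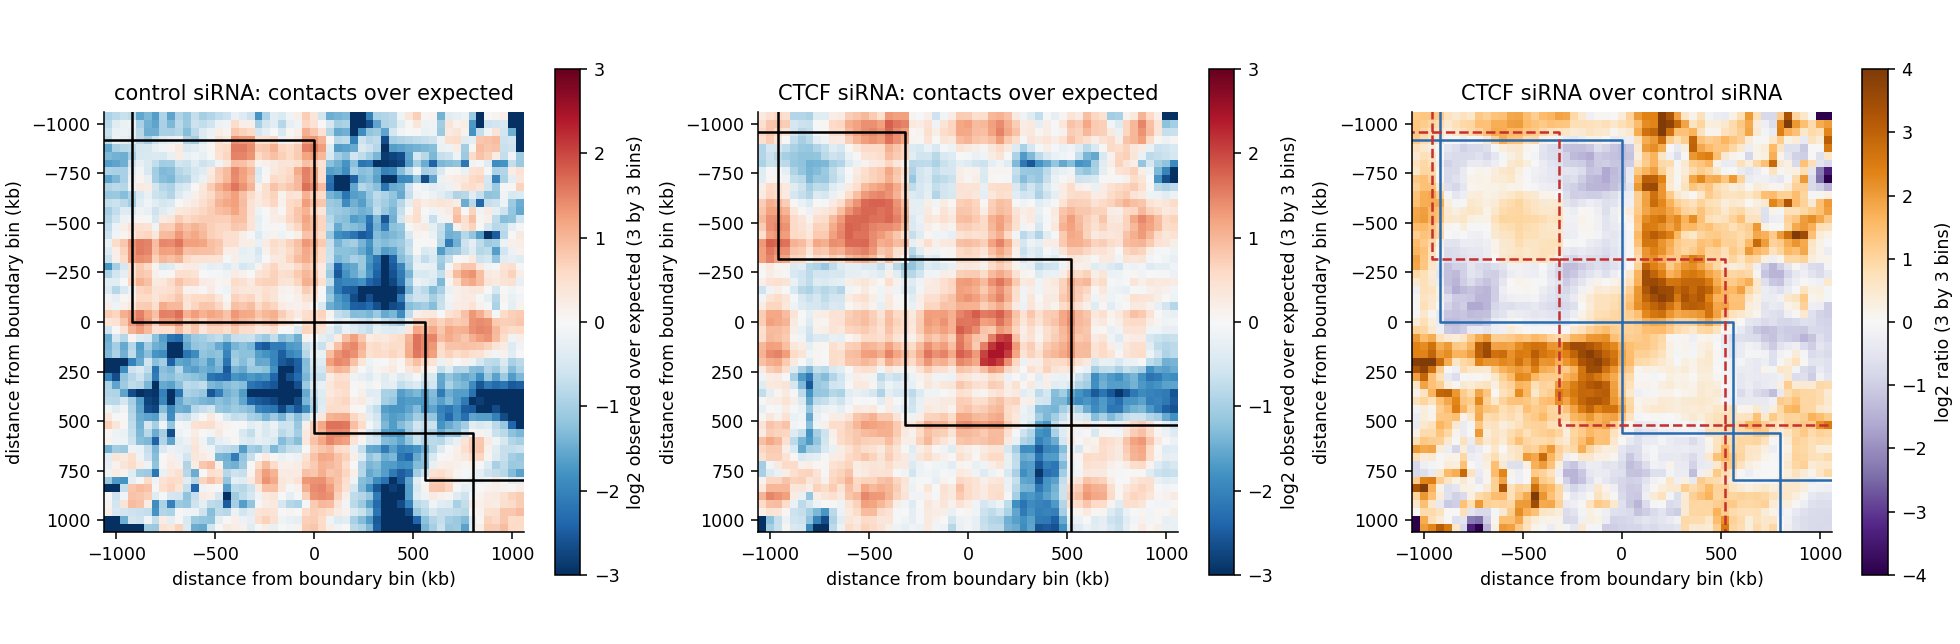
Contacts over those expected at the same distance in the window, each pixel summed over 3 by 3 bins, in control siRNA (left) and CTCF siRNA (middle), and the ratio of the maps (right), on log2 colour scales, with both axes in kb from the boundary bin. Squares are the TADs of the authors' lists (right panel: control in solid blue, CTCF siRNA in dashed red). The block across position 0, between WASF1 to DDO and SLC22A16 to AMD1, was mostly blue in control and mostly red in CTCF siRNA. Part of it, at WASF1 with CDK19, stayed below expected in CTCF siRNA.

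The insulation value compares the contacts across a bin with those inside its flanks. It is the log2 of observed over expected contacts between the 400 kb on each side, divided by observed over expected contacts within these sides, so that a low value marks a boundary. At the boundary bin it was -1.97 ± 0.14 (counting SD) in control and -0.00 ± 0.04 in CTCF siRNA. The difference was 1.97 ± 0.15. In control 116 contacts crossed the bin where 358 were expected, and in CTCF siRNA 1829 crossed where 1207 were expected. Observed over expected contacts across the bin were thus 4.67 times higher in CTCF siRNA (exact 95% interval 3.87 to 5.69), or 3.57 times with balanced counts.

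The dip in control covered the start of DDO and the body of SLC22A16. The bin 40 kb to the right, with the start of SLC22A16, had -1.98 in control and 0.16 in CTCF siRNA, a difference of 2.14. The bin 40 kb to the left, with the end of DDO, had -0.99 and 0.06. The bins 80 and 120 kb to the right, which hold no protein-coding gene, differed by 1.70 and 1.29, and the bin 160 kb to the right by 0.18. In all, 5 of the 53 bins were higher by at least 1 in CTCF siRNA, against 2.21% of the 2939 chromosome 6 bins with a value. These 5 bins are neighbours that share contacts, and with balanced counts they were 4. Of the same 2939 bins, 1 had a larger difference than the boundary bin, the bin with the start of SLC22A16, and 11 had a lower control value.

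At other bins the insulation value was lower in CTCF siRNA. Around WASF1, 320 kb left of the boundary, control had a value of 0.01 and CTCF siRNA of -0.80. Both maps had a minimum 40 kb further left, outside any protein-coding gene, and it was deeper in CTCF siRNA, at -0.97 against -0.17 in control. At the start of AMD1, 440 kb to the right, the value was 0.01 with control siRNA and -0.84 after CTCF siRNA. In all, 5 of the 53 bins were lower by at least 0.8, a threshold chosen after the values were seen, against 0.476% of chromosome 6 bins, and they were 3 bins of WASF1 and 2 of AMD1. With balanced counts the 2 of AMD1 remained. Observed over expected contacts across the 3 WASF1 bins had ratios of 0.80, 0.88 and 1.02, against a chromosome 6 median of 0.93. The right flank of each WASF1 bin spans the former boundary, so contacts gained there count as contacts within a flank. Their lower value is thus not by itself a loss of contacts across WASF1. Across the 2 AMD1 bins the ratios were 0.82 and 0.81.

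The dip at the right end of the domain was present in both maps. At the bin of GTF3C6, a subunit of the transcription factor TFIIIC, and RPF2, a ribosome assembly factor, 560 kb right of the boundary, control had an insulation value of -1.39 ± 0.13 and CTCF siRNA one of -1.36 ± 0.07. This difference was within the counting error. The bins on its sides differed in opposite directions: the bin to the left, at GTF3C6 alone, had -0.81 in control and -1.40 in CTCF siRNA, and the bin to the right, at RPF2 alone, had -1.21 and -0.66.

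**Figure D2:**
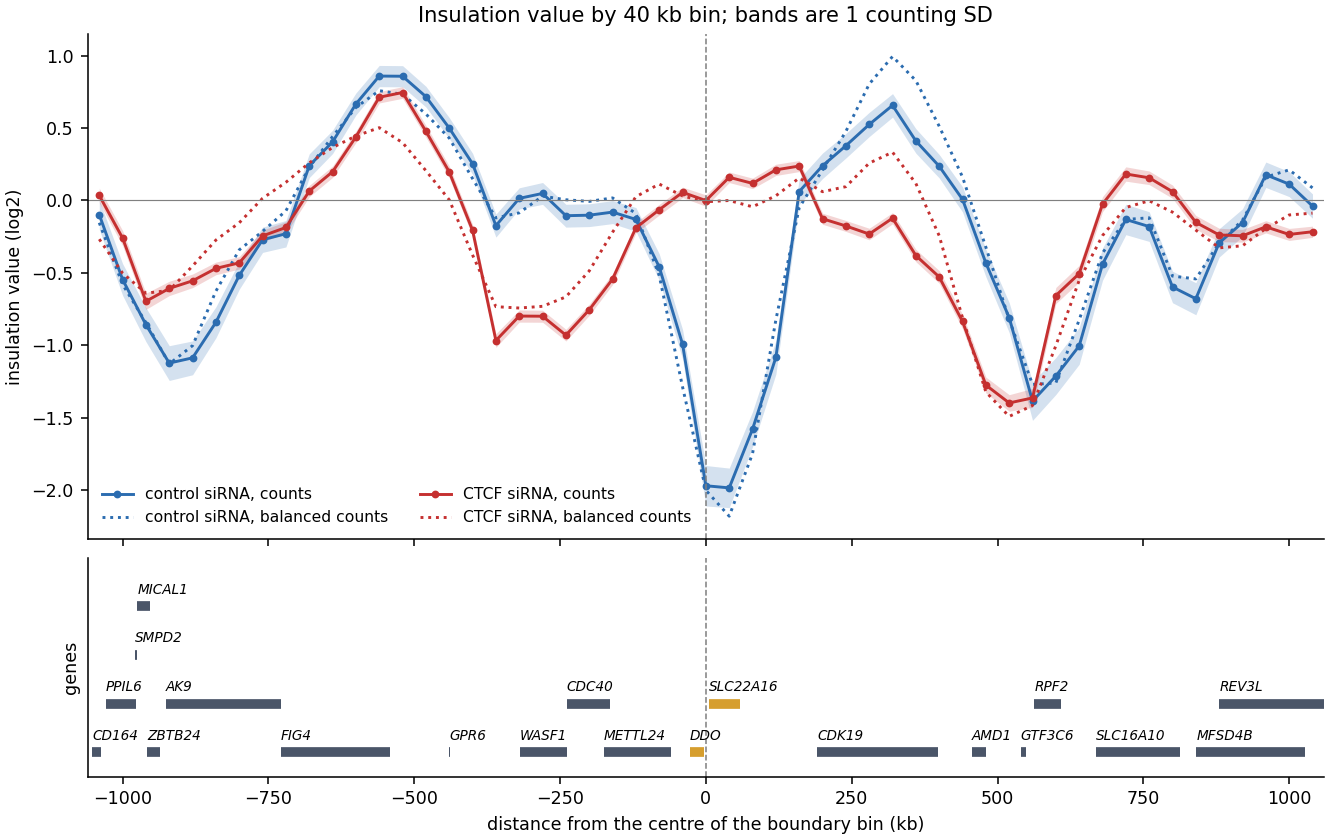
Insulation value (log2) of each 40 kb bin against its distance in kb from the centre of the boundary bin, in control siRNA (blue) and CTCF siRNA (red), with bands of 1 counting SD, dotted lines for balanced counts, and the genes below (DDO and SLC22A16 in yellow). The control dip of -1.97 at position 0 was at -0.00 in CTCF siRNA, the dip beside WASF1 was at -0.97 in CTCF siRNA and -0.17 in control, and both maps had a dip near -1.4 at GTF3C6 and RPF2.

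The increase across the boundary was measured at each distance between the bins of a pair. For pairs 80 to 200 kb apart, contacts over expected were 0.42 in control and 1.70 in CTCF siRNA, a ratio of 4.03 (2.81 to 5.96). For pairs 240 to 400 kb apart they were 0.34 and 1.75, a ratio of 5.14 (3.86 to 6.98), and for pairs 440 to 800 kb apart 0.38 and 1.29, a ratio of 3.42 (2.83 to 4.18). All pairs up to 400 kb apart, and a part of those beyond, belong to the contacts that chose the bin. Pairs 840 to 2000 kb apart, none of which entered the insulation value, differed less, with 0.75 in control and 1.19 in CTCF siRNA, a ratio of 1.59 (1.44 to 1.76) that 385 of 2878 bins exceeded. With balanced counts this last ratio was 1.20, and the others lay between 2.62 and 3.41.

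**Figure D3:**
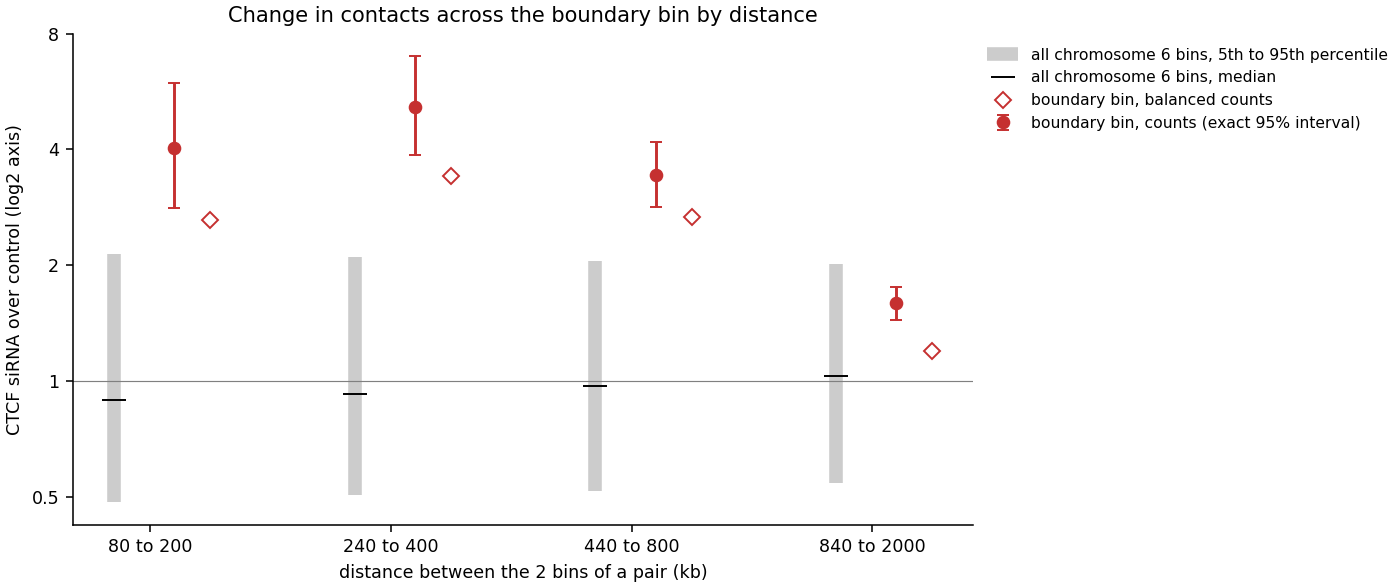
Ratio of contacts over expected, CTCF siRNA over control siRNA, across the boundary bin (red circles with exact 95% intervals, open diamonds for balanced counts) by the distance in kb between the bins of a pair, on a log2 axis. Grey bars span the 5th to 95th percentile of all chromosome 6 bins with a black line at their median; the boundary bin, chosen for contacts up to 800 kb apart, lay above the bars at the 3 shorter distances and inside the bar at 840 to 2000 kb.

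The TADs of both lists cut the region into 3 segments: one with FIG4, one from WASF1 to DDO, and one from SLC22A16 to AMD1. The bins at the edges were left out. The WASF1 to DDO segment and most of the SLC22A16 to AMD1 segment lie in the flanks whose contacts chose the bin, so the values between them describe that choice. The segment from WASF1 to DDO and that from SLC22A16 to AMD1 shared 92 contacts in control where 316 were expected, and 1633 in CTCF siRNA where 1062 were expected. Contacts over expected were 0.29 (exact Poisson 95% interval 0.23 to 0.36) and 1.54 (1.46 to 1.61), a ratio of 5.28 (4.28 to 6.59), or 4.11 with balanced counts. Within the WASF1 to DDO segment the values were 1.41 in control and 1.37 in CTCF siRNA, and within the SLC22A16 to AMD1 segment 1.16 and 1.65, or 1.32 and 1.22 with balanced counts.

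The FIG4 segment, a part of the same control TAD as WASF1 and DDO, had fewer contacts over expected with them in CTCF siRNA. FIG4 encodes a phosphoinositide phosphatase. Contacts over expected between the FIG4 segment and the WASF1 to DDO segment were 1.41 in control and 0.98 in CTCF siRNA, a ratio of 0.70 (0.63 to 0.78), or 0.62 with balanced counts. Ratios between segments of this size elsewhere on chromosome 6 were not computed. Across single chromosome 6 bins, for pairs 80 to 800 kb apart, ratios had medians of 0.89 to 0.97 and 5th percentiles of 0.48 to 0.52. A ratio of 0.70 lies inside that range. Between the FIG4 segment and the SLC22A16 to AMD1 segment they were 0.47 in control and 1.23 in CTCF siRNA, a ratio of 2.63 (2.16 to 3.22). That ratio was 1.69 with balanced counts, lower than the 4.11 between the segments next to the boundary. Over the whole control TADs on each side, contacts over expected were 0.38 and 1.38, a ratio of 3.62 (3.17 to 4.16).

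**Figure D4:**
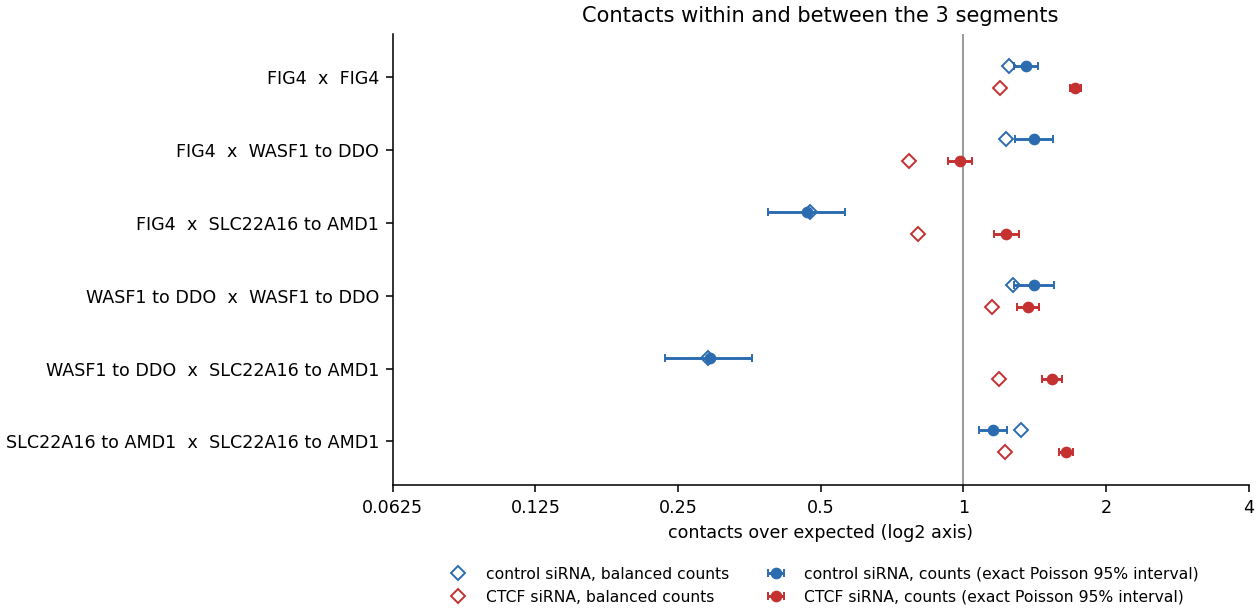
Contacts over expected (log2 axis) within and between the FIG4, WASF1 to DDO and SLC22A16 to AMD1 segments, in control siRNA (blue) and CTCF siRNA (red), as circles with exact Poisson 95% intervals from the counts and open diamonds from balanced counts; the vertical line marks the expected value. The pair WASF1 to DDO with SLC22A16 to AMD1 went from 0.29 to 1.54, while FIG4 with WASF1 to DDO went from 1.41 to 0.98.

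Contacts between gene bodies were then compared, each gene taken as all 40 kb bins it overlaps. The 11 genes on the left and the 7 on the right shared 258 contacts in control where 463 were expected and 1790 in CTCF siRNA where 1640 were expected. The ratio of contacts over expected was 1.959 (1.72 to 2.24), or 1.76 with balanced counts. Of the 77 gene pairs, 52 had at least 3 contacts expected in control. Among these, 24 had a ratio of at least 2, against 24.6% of the 3110 chromosome 6 gene pairs with at least 1 bin between them. With balanced counts 15 of the 52 had such a ratio, against 13.0%. A further 8 had a ratio below 1, and neighbouring genes share bins. All 6 pairs of WASF1, CDC40 or METTL24 with CDK19 or AMD1 had a ratio above 2, with balanced counts as well, and 18 of the other 46, or 9 with balanced counts. The pairs with CDK19 lie within the flanks of 400 kb whose contacts chose the bin, so their values repeat that choice, and AMD1 lies outside these flanks.

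Among the pairs of the 5 named genes, DDO and AMD1 had the largest ratio. DDO and CDK19 shared 24 contacts in control (52.4 expected) and 306 in CTCF siRNA (175 expected), a ratio of 3.82 (2.52 to 6.06) and of 3.08 with balanced counts. DDO and AMD1 shared 3 contacts in control (11.5 expected) and 95 in CTCF siRNA (39.3 expected), a ratio of 9.26 (3.07 to 45.7) and of 6.62 with balanced counts. Only 3 control contacts lie behind the latter, which its wide interval reflects. DDO and SLC22A16, which share the boundary bin, had 95 contacts in control (66.8 expected) and 656 in CTCF siRNA (215 expected), a ratio of 2.15 that was 1.42 with balanced counts.

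Contacts of SLC22A16 with CDK19 and AMD1, genes of its own control TAD, were higher in CTCF siRNA as well. SLC22A16 and CDK19 shared 49 contacts in control (59.1 expected) and 348 in CTCF siRNA (196 expected), a ratio of 2.15 (1.59 to 2.96), or 1.24 with balanced counts. SLC22A16 and AMD1 shared 8 and 116, a ratio of 4.23 (2.08 to 10.04), or 2.54 with balanced counts. Both pairs lay inside 1 TAD in both lists. The body of SLC22A16 includes the boundary bin, whose coverage ratio was above the median of the window.

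WASF1 had more contacts over expected with CDK19 in CTCF siRNA, in bin pairs that all belong to the contacts that chose the bin. WASF1 and CDK19 shared 12 contacts in control (42.0 expected) and 126 in CTCF siRNA (148 expected), a ratio of 2.99 (1.65 to 5.93) and of 4.31 with balanced counts. WASF1 and AMD1 shared 4 and 30, a ratio of 2.12 whose interval (0.75 to 8.29) includes 1, so that a change was not detectable at this depth. With DDO, WASF1 shared 57 contacts in control (30.5 expected) and 136 in CTCF siRNA (101 expected), a ratio of 0.72 (0.53 to 1.002). With SLC22A16 its ratio was 0.88 (0.62 to 1.27).

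CDK19 and AMD1, neighbours inside 1 TAD in both lists, had 75 contacts in control (111 expected) and 287 in CTCF siRNA (359 expected), a ratio of 1.19 (0.92 to 1.55) and of 1.004 with balanced counts. Their pair thus differed by less than the counting error.

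METTL24 and CDC40, which lie between WASF1 and DDO, had larger ratios with CDK19 than WASF1 or DDO had. METTL24, named for its similarity to methyltransferases, and CDK19 shared 6 contacts in control (60.6 expected) and 256 in CTCF siRNA (205 expected), a ratio of 12.6 (5.70 to 34.6). CDC40 and CDK19 shared 9 (50.03 expected) and 238 (173 expected), a ratio of 7.64 (3.96 to 16.9). With balanced counts these ratios were 9.64 and 10.1. The bin pairs behind both ratios all belong to the contacts that chose the bin, so these values repeat that choice. Left of the boundary, FIG4 and DDO shared 64 contacts in control (21.3 expected) and 129 in CTCF siRNA (75.8 expected), a ratio of 0.57 (0.42 to 0.78) and of 0.36 with balanced counts.

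**Figure D5:**
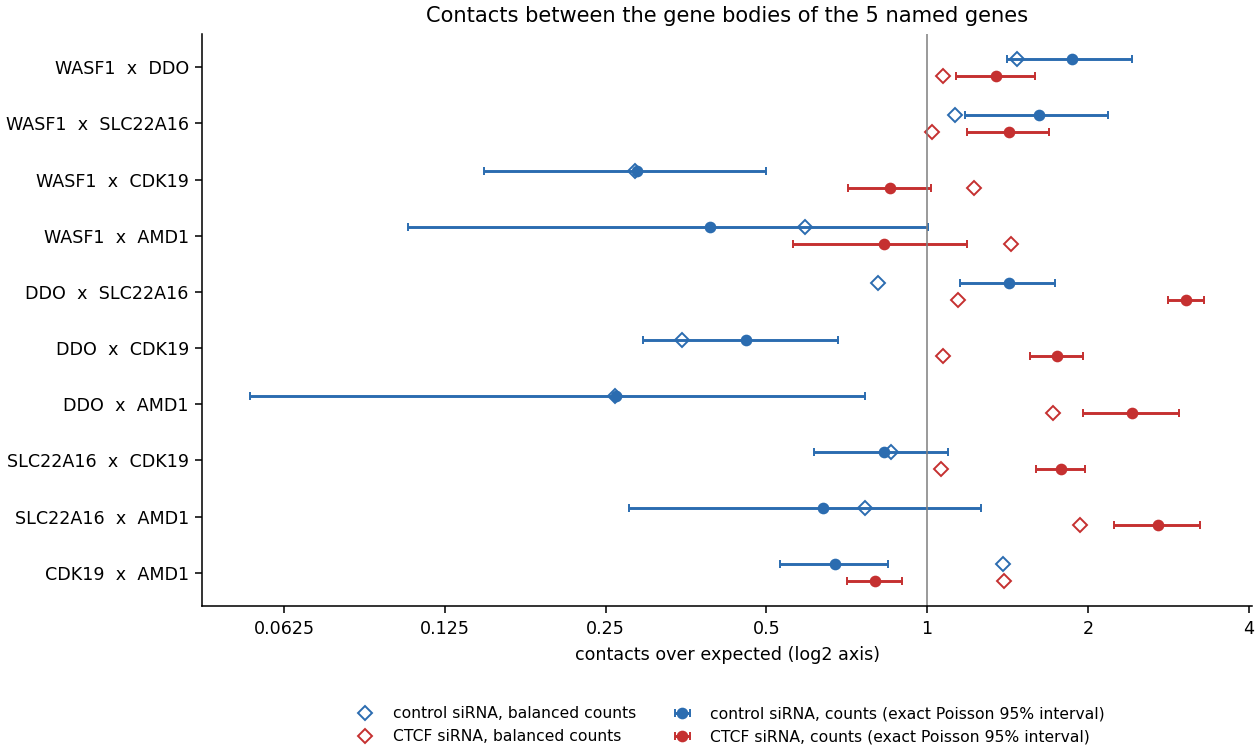
Contacts over expected (log2 axis) between the bodies of WASF1, DDO, SLC22A16, CDK19 and AMD1, in control siRNA (blue) and CTCF siRNA (red), as circles with exact Poisson 95% intervals from the counts and open diamonds from balanced counts; the vertical line marks the expected value. DDO with AMD1 went from 0.26 to 2.42, or from 0.26 to 1.72 with balanced counts. DDO with SLC22A16 went from 1.42 to 3.06, or from 0.81 to 1.14 with balanced counts. WASF1 with DDO went from 1.87 to 1.35, or from 1.47 to 1.07 with balanced counts.

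The contacts of the start bins of the 5 genes are given as single viewpoints. Those of WASF1, DDO, SLC22A16 and CDK19 lie in or between the flanks that chose the bin, so much of their contact across the boundary was part of that choice. Within 1 Mb on either side of the boundary bin, the WASF1 start bin had 15.4% of 305 contacts right of the boundary in control (exact binomial 95% interval 11.5 to 20.0%) and 35.3% of 877 in CTCF siRNA (32.2 to 38.6%). The DDO start bin, which is the boundary bin itself, had 42.0% of 410 and 57.1% of 2236 to its right. Both genes thus had a larger share of their contacts on the right after CTCF siRNA.

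The genes on the right had a smaller share of contacts on their own side. The SLC22A16 start bin had 66.7% of 198 contacts right of the boundary in control and 55.5% of 962 in CTCF siRNA (52.3 to 58.7%). The CDK19 start bin had 96.4% of 56 (87.7 to 99.6%) and 77.4% of 385 (72.9 to 81.5%), and the AMD1 start bin 88.8% of 98 (80.8 to 94.3%) and 74.8% of 481 (70.7 to 78.7%). The intervals cover counting error only, and the shares are from counts without balancing, so uneven coverage enters them. How much such shares differ between the maps at other chromosome 6 bins was not computed. For all but AMD1, which lies outside the flanks, the difference was in part fixed by the choice of the bin.

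Set against the expected value, the CDK19 start bin was the most separated in control. It had 2 contacts left of the boundary where 35.9 were expected, and 87 in CTCF siRNA where 128 were expected, a ratio of 12.3 (3.29 to 103). This bin had the fewest control contacts of the window, 108, and its ratio was 7.88 with balanced counts. With the segment from WASF1 to DDO it had 0 contacts in control, where 17.1 were expected, and 39 in CTCF siRNA of 59.8 expected. The exact 95% interval of this ratio begins at 2.88. The AMD1 start bin had 11 contacts to the left in control and 121 in CTCF siRNA, a ratio of 3.09 (1.67 to 6.36), or 2.56 with balanced counts. For the WASF1 start bin with the right side, 47 and 310 contacts gave a ratio of 1.90 (1.39 to 2.64), or 2.11 with balanced counts. The DDO start bin to the right and the SLC22A16 start bin to the left had ratios of 2.24 (1.91 to 2.64) and 1.94 (1.49 to 2.55), which were 1.37 and 1.35 with balanced counts.

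TADs were called by the authors from the directionality of contacts, the preference of a bin for partners upstream or downstream within 2 Mb. In control the preference switched at the boundary. The bin with the end of DDO, 40 kb to the left, had 24.1% of its contacts downstream (to the right; 19.1 to 29.7%), while the bins 80 and 120 kb to the right had 71.9% (64.1 to 78.9%) and 84.0% (80.2 to 87.3%). In CTCF siRNA these shares were 48.08%, 44.1% and 66.1%. The SLC22A16 start bin had 52.2% downstream in control and 40.1% in CTCF siRNA. All directionality shares are from counts without balancing.

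Further left, CDC40 and METTL24 had a larger share downstream in CTCF siRNA. The bins of CDC40, 200 kb left of the boundary, and METTL24, 120 kb left, had 48.7% and 42.3% of their contacts downstream in control and 66.4% and 64.2% in CTCF siRNA. Between GPR6, an orphan G protein-coupled receptor, and WASF1, where the edge at 110.42 Mb was called in CTCF siRNA, the share changed in both maps. From 440 to 240 kb left of the boundary it went from 42.6% to 51.1% in control and from 39.8% to 58.8% in CTCF siRNA. From 400 to 320 kb it went from 28.1% to 56.3% in control and from 32.1% to 47.7% in CTCF siRNA.

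Single bin pairs were compared last. A pair was counted as gained where contacts over expected were at least 2-fold higher in CTCF siRNA, among pairs with at least 3 contacts expected in control and with 0 control contacts taken as 3. Such pairs span at most 440 kb. Across the boundary 35 of 55 pairs were gained, or 63.6%, against 15.0% of the 32444 chromosome 6 pairs. Of the 55 pairs, 18 had 0 control contacts, and the median number of contacts of a pair was 1 in control and 21 in CTCF siRNA. All 55 pairs lie in the flanks whose contacts chose the bin, so their share repeats the insulation value in finer detail.

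Gains were concentrated across the boundary. With both bins left of it 37 of 220 pairs were gained (16.8%), with both right of it 41 of 220 (18.6%), and with the boundary bin as a partner 12 of 22 (54.5%). The shares on either side were near the background. All these shares are from counts without balancing. The boundary bin had a coverage ratio of 5.10, against 3.26 for the contacts of chromosome 6, so its share includes that uneven coverage. Within 1 Mb its ratio was 2.24 to the right and 1.22 to the left, or 1.37 and 0.83 with balanced counts. Among pairs with at least 1 control contact, those at least 2-fold lower in CTCF siRNA made up 19.5% over chromosome 6. They were 1 of 37 across the boundary, 23 of 211 to its left and 25 of 199 to its right. Within the left group, pairs between the FIG4 segment and the WASF1 to DDO segment had 2 gained of 49 and 5 lowered of the 48 with a control contact, with a median ratio of 0.75 against 0.89 over all chromosome 6 pairs. The share of lowered pairs there was below that of the chromosome, and so was the share of gained pairs. A 2-fold limit on single pairs cannot decide on a ratio of 0.70 between the segments, so no conclusion is drawn from these counts.

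The gained pairs lay mostly at the bins of CDC40, METTL24 and DDO on the left. On the right they lay from the stretch after SLC22A16, which holds no protein-coding gene, into CDK19. The left bin with the end of DDO was gained in 8 of 10 pairs and the METTL24 bin next to it in 8 of 9. On the right, the bin with the end of CDK19 was gained in 6 of 6 pairs and the bins 120 and 160 kb from the boundary, which hold no protein-coding gene, in 7 of 8 and 6 of 7. The next 4 CDK19 bins were gained in 3 of 5, 2 of 4, 1 of 3 and 2 of 2 pairs. The bin with the start of CDK19 was not gained in the 1 pair it had. Bins further from the boundary had fewer pairs to count, since pairs span at most 440 kb. The SLC22A16 start bin was gained in 3 of 10. These numbers per bin are from counts without balancing. The bins 120 and 160 kb right of the boundary had coverage ratios of 5.90 and 6.76, above the window median of 4.31.

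The 5 pairs with the largest ratios, with 0 control contacts taken as 3, all ended in these bins without a protein-coding gene. The METTL24 bin 80 kb left of the boundary and the bin 160 kb right of it shared 1 contact in control (5.36 expected) and 72 in CTCF siRNA (17.6 expected), a ratio of 21.9 (3.81 to 876). The bin of CDC40 and METTL24 had 1 contact in control and 58 and 57 in CTCF siRNA with the bins 120 and 160 kb to the right. The DDO end bin and a further METTL24 bin had 1 contact each in control and 46 and 32 in CTCF siRNA with the bin 160 kb to the right. Pairs with 0 control contacts rank below these by that rule: the bin of WASF1 and CDC40 240 kb to the left had 0 contacts in control and 50 in CTCF siRNA with the bin 160 kb to the right, and the METTL24 bin had 0 and 34 with the bin of the end of CDK19. The 5 pairs were picked as the largest, each rests on 1 control contact, and with balanced counts their ratios lay between 5.06 and 10.6.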

How the data were processed

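Hi-C libraries of LNCaP cells, cut with BglII, were mapped to hg19 and pooled per condition by the authors, who called TADs with domaincaller, which feeds the directionality of each bin to a hidden Markov model. The submitters' processing notes name FastQC 0.11.2, Bowtie 1.1.0, SAMtools 1.2 and Picard 1.121. The deposited contact values are read-pair counts per pair of 40 kb bins, not scaled for depth. On chromosome 6, values were not whole from 9.4 to 48.16 Mb, for a reason not given in the sources used here, and these bins were left out of the expected values. The expected value is the mean count at each distance over 2975 usable bins (at least 10% of the median coverage in both maps). Iterative balancing used 100 rounds. Intervals are exact Poisson for a value, exact conditional binomial for a ratio and exact binomial for a share. PCR reads without molecular identifiers are not independent molecules. No test between conditions was possible with 1 map each. Named genes were all GENCODE protein-coding genes overlapping the window, 5 of them in full, and the 5 pairs of bins with the largest ratio. The bin, genes, segments and lists were chosen with earlier results of these data known. The insulation change was checked on simulated maps. Python 3.11.15, numpy 2.4.6, scipy 1.17.1 and pandas 2.3.3 were used. Alternatives are given in the closing section.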

Additional observations from a re-analysis of the deposited data

How the results depend on the processing

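No paired analysis was possible because the authors pooled the libraries of each condition into 1 map, and for the same reason leaving out each replicate could not be run. The insulation difference of 1.97 at the boundary bin was 1.28 with flanks of 20 bins and 2.30 without pairs 1 or 2 bins apart. The ratio of contacts across the boundary, 4.67, was 5.89 with flanks of 5 bins, 2.87 with flanks of 20 bins and 3.57 with balanced counts. Balanced counts gave 2.57 for the ratio between the control TADs. The share of bin pairs of the window that were gained, 24.2%, was 15.7% with balanced counts (chromosome 6: 13.6%), 38.7% at a fold of 1.5 (25.2%) and 13.7% at a fold of 3 (6.40%), while the share across the boundary lay between 50 and 80%. Balancing, as an alternative chosen after seeing the data, gave start-bin ratios of 1.37 for DDO and 1.35 for SLC22A16. With edges matched exactly, 0 of 4 control edges were shared. Of 44 alternatives over 14 results, 32 moved by less than the counting error or the limit set for counts and 0 reversed. By the rule used, alternatives for the shares of bin pairs and for the TAD edges could not be labelled as reversed. Leaving out pairs 1 or 2 bins apart could not change the ratio between left and right genes, since none of their bins lie that close. Depth limits the control map more than the CTCF siRNA map: 18 of the 55 pairs across the boundary had no control contact, so their ratios are bounds.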
